A study of Rattus norvegicus with 16 samples.

Results

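Carbonic anhydrases are enzymes that hold a zinc ion at the active site and interconvert carbon dioxide and water with bicarbonate and a proton. In the brain they serve pH balance, bicarbonate supply for ion currents, fluid secretion and carbon dioxide removal. Members differ in where they sit in the cell (cytosol, mitochondria, cell surface) and in which cells make them, and some relatives of the family have lost the zinc-binding residues and the activity. Zinc supply to the rat is the variable of the study, so the transcripts of 4 of these zinc enzymes, Car2, Car3, Car7 and Car14, were followed in the diencephalon, a brain region made up mainly of thalamus and hypothalamus. The members were taken by gene symbol: every probe set that the array's annotation assigns to 1 of the 4 genes was used, which gave 7 probe sets of the 31042 on the array that are no controls. The 4 genes are 4 of the 14217 single genes named there. Of the 7 probe sets, 6 had a mean log2 signal at or above the array's median of 7.35 and were among the 15521 tested, and 1 of the Car3 probe sets lay below it. Where a gene has 2 probe sets, they are called the first and the second, in the order of their IDs.

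Transcripts were measured on expression microarrays in 16 diencephalons, 1 male Sprague-Dawley rat per array and 4 rats per group, and the number of arrays limits the precision of every value. ZD rats received a zinc-deficient diet (0.6 mg zinc per kg) freely for 10 days, and PF rats were pair-fed a zinc-sufficient control diet (30.0 mg per kg), so PF rats ate a restricted amount set by the ZD rats. ZR rats had the same 10 days of deficiency and then 6 days on a fixed daily 13 g of the control diet, and ZRPF rats were pair-fed control diet for 10 days and had the same 6 days. All rats were 5 weeks old when the diets started, had eaten the control diet beforehand, and were offered 300 mM NaCl in a preference test. The 4 rats of a group were picked by the submitters as average in body weight, plasma zinc and salt preference out of 9 (ZD, ZR) or 6 (PF, ZRPF). In the recovery experiment 3 ZR rats and 1 ZRPF rat had been removed by their salt preference. ZR with ZRPF and ZD with PF were separate experiments with different end points. So in ZR against ZD and in ZRPF against PF several factors cannot be told apart. They are the experiment, the age at sampling, the days and ration of feeding and any difference in array run. In ZR against ZD none of them can be told apart from the return of zinc.

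Across the whole array, the signals of each array were scaled to 1 trimmed mean by MAS5, and arrays of 1 group correlated with r between 0.944 and 0.961. All 11 thalamus markers with a probe set were among the tested probe sets, with summed signals between 29549 and 39571 on the 16 arrays. Choroid plexus markers varied: their summed signal (13 of 15 with a probe set, 9 tested) was 9901 to 22215 in ZD, 8953 to 10482 in PF, 8205 to 35427 in ZR and 8578 to 37279 in ZRPF. Car2 is known from choroid plexus, oligodendrocytes and red blood cells, and the part that the amount of these tissues has in the member values was not tested beyond the fits with a marker covariate given below. In bulk tissue, fewer cells of a type and less RNA per cell cannot be told apart.

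With limma and Benjamini-Hochberg adjustment, 0 of the 6 tested member probe sets passed an adjusted p of 0.05 in ZD against PF, where 0 of all 15521 did (0%). At an unadjusted p under 0.05 there were 2 of 6, Car7 lower and the second Car2 probe set higher in ZD, against 7.86% of all tested probe sets. In ZR against ZRPF 0 of 6 passed, beside 0.00644% of all, and 0 of 6 had an unadjusted p under 0.05, beside 5.21%. In ZR against ZD 1 of 6 passed, the second Car2 probe set, lower in ZR, beside 17.3% of all tested probe sets (8.18% lower), and 2 of 6 had an unadjusted p under 0.05, beside 31.3%. In ZRPF against PF 0 of 6 passed, beside 15.7%, and 1 of 6 (Car14) had an unadjusted p under 0.05, beside 30.1%. The median log2 difference of the 6 was -0.01 in ZD against PF, where it was 0.01 over all tested probe sets. In ZR against ZRPF these medians were -0.06 for the 6 and -0.01 for all. With only the brightest probe set of each gene, the medians of the 4 genes were -0.387 in ZD against PF and -0.084 in ZR against ZRPF. In each comparison 3 of the 4 genes were lower and 1 higher. Over 9278 named genes the medians were 0.017 and -0.008.

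**Figure D1:**
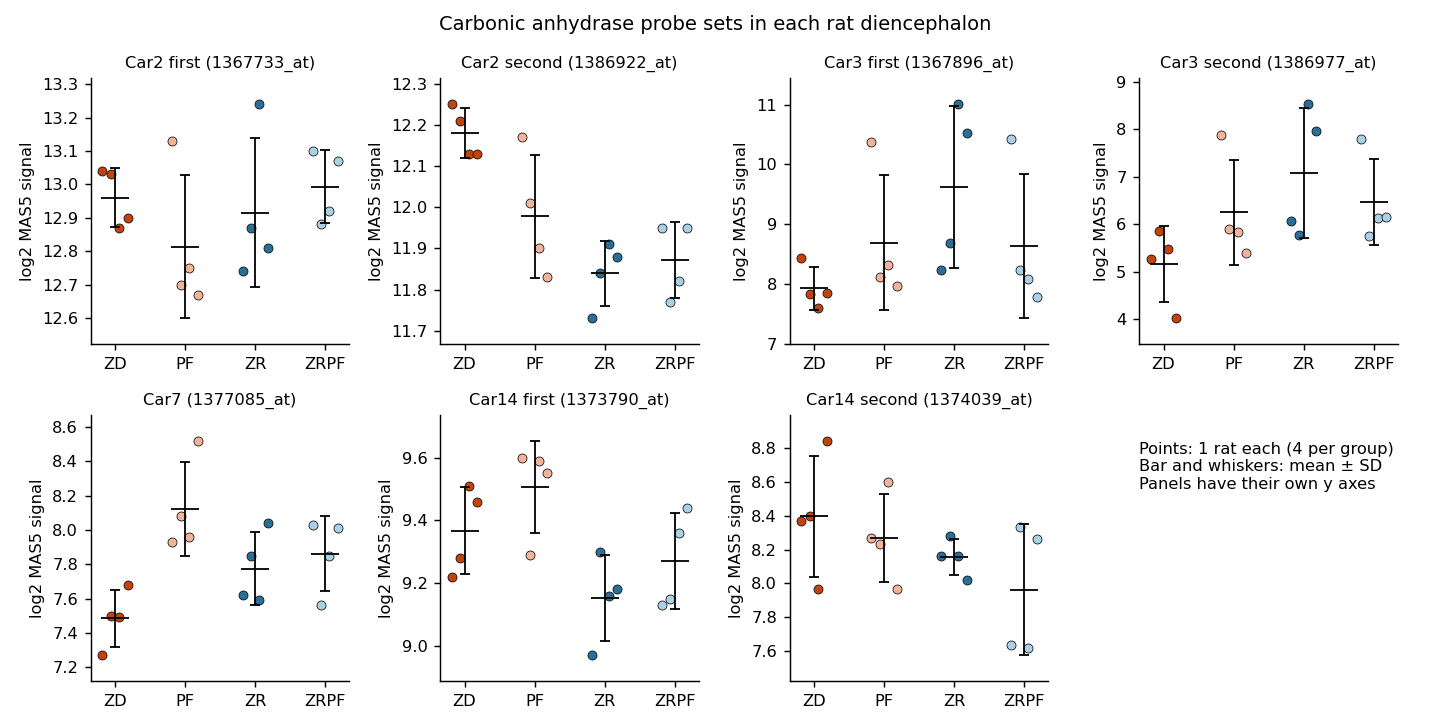
log2 MAS5 signal (y axis, 1 scale per panel) of the 7 probe sets of Car2, Car3, Car7 and Car14 in ZD, PF, ZR and ZRPF rats (x axis); each point is 1 rat, and the bar with whiskers is the mean ± SD of 4 rats. The 4 ZD rats lie below the 4 PF rats for Car7, the second Car2 probe set is lower in all ZR than in all ZD rats, and single rats stand far above the others for Car3.

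Car7 is a cytosolic isozyme known from neurons, where in rat hippocampus it supplies bicarbonate for currents through GABA-A receptor channels. It had the smallest unadjusted p of the members in ZD against PF. Its signal was 154, 181, 180 and 205 in the 4 ZD rats, against 243, 271, 248 and 366 in the 4 PF rats. The 4 ZD rats were all below the 4 PF rats, with no overlap, and rat PF6 was the highest. The mean log2 signal was 7.49 ± 0.17 in ZD and 8.12 ± 0.27 in PF (SD, n = 4 each), a log2 difference of -0.63 ± 0.15 (SE), which is a fold of 0.65. The 95% interval of that difference ran from -0.95 to -0.31, and its unadjusted p of 0.000555 ranked 37 of 15521, but the limma adjusted p was 0.224, so the call was not made. The exact two-sided permutation p was 0.0286, the smallest that 4 against 4 rats allow. Of the 6 tested member probe sets Car7 was the 1 whose ZD rats all lay below the PF rats, and 1.7% of all tested probe sets did so. Without PF6 the difference was -0.50 (limma adjusted p = 0.528).

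After recovery the Car7 values lay close together. They were 196, 230, 193 and 263 in ZR rats, against 261, 189, 231 and 258 in ZRPF rats. The groups overlapped: ZR15 had the highest value of the 8 rats and ZRPF4 the lowest. The log2 difference was -0.09 ± 0.15 (95% interval -0.41 to 0.23, limma adjusted p = 0.963, exact permutation p = 0.714). The change in the difference between the experiments was 0.54 ± 0.21, with an unadjusted p of 0.0208 and a limma adjusted p of 0.747, so the differences in the deficiency and recovery experiments were not shown to differ. For this test 2 of 6 member probe sets had an unadjusted p under 0.05, beside 6.6% of all, and 0 passed the adjusted threshold, as did 0 of all 15521 (0%). Averaged over both experiments Car7 was -0.36 ± 0.11 (limma adjusted p = 0.527), and 0 of 6 member probe sets passed there, beside 0.0193% of all; 1 of 6 had an unadjusted p under 0.05, beside 6.69%. The rats fed control diet throughout had a log2 difference of -0.26 ± 0.15 in ZRPF against PF (adjusted p = 0.272) and ZR against ZD was 0.29 ± 0.15 (adjusted p = 0.207), both by limma. Beside Car7, 10 of 11 thalamus markers and 7 of 11 neuron markers were lower in ZD than in PF. Their median log2 differences were -0.144 and -0.051. So were 8 of 10 astrocyte markers (median -0.046) and 8 of 13 oligodendrocyte markers (-0.02). None of these markers was called, and 4116 of 9278 named genes were lower. The 9 tested choroid plexus markers were all higher in ZD, none called, with a median of 0.494. Other marker lists were higher in ZD as well, with 0 genes called: 10 of 10 markers of meninges and mural cells (median 0.338), 7 of 9 of microglia (0.258), 8 of 10 of endothelium (0.157) and 4 of 5 of ependyma and tanycytes (0.156). Their part in the Car7 difference was not tested. With the mean of these choroid plexus markers as a covariate the Car7 difference was -0.68, and with the oligodendrocyte markers it was -0.62.

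Because zinc-responsive genes such as metallothioneins are known to carry metal response elements ahead of their start, the 250 bases before the start of the members were searched in RefSeq promoters of the GRCr8 build. Promoters of 2 of the 4 members, Car7 and Car14, were at hand. The core searched was TGCACNC or TGCGCNC on both strands, which 20.6% of 33469 promoters held, and neither Car7 nor Car14 had a match. The GC box GGGCGG, on both strands, was in 30.5% of the promoters, 2 times in Car7 and 0 times in Car14. The Car7 stretch is shown since Car7 had the smallest p of the members in ZD against PF, with the GC boxes in capitals, 47 to 42 and 20 to 15 bases before the start. It lies at chr19:444915-445164 (GRCr8, minus strand) and ends at the base before the start.
Car7 upstream: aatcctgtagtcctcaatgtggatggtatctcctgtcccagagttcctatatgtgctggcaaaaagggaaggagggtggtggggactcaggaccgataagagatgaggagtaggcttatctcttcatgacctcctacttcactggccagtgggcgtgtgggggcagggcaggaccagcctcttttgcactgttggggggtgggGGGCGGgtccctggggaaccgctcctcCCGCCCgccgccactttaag

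Car2 is the cytosolic isozyme with high turnover that is known as the common form in brain, in oligodendrocytes and choroid plexus. Both of its probe sets were bright on all 16 arrays, and after removal of the group means they moved together from rat to rat (Pearson r = 0.81, permutation p = 0.00027, adjusted p = 0.00108 over 4 pairs; Spearman rho = 0.85, p = 0.00061; 16 rats). Without the 2 rats farthest from the median r was 0.78. Both are assigned to Car2 and come from the same arrays, so they are not independent readings, and which stretch of the gene each one reads was not analysed here. The first probe set (1367733_at) had signals of 8425, 8357, 7505 and 7665 in ZD rats, against 8954, 6641, 6902 and 6535 in PF rats. PF2, PF4 and PF6 lay below all ZD rats and PF1 lay above them, so the groups overlapped. The log2 difference was 0.15 ± 0.11 (95% interval -0.07 to 0.37, limma adjusted p = 0.767).

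The second Car2 probe set (1386922_at) had signals of 4861, 4740, 4469 and 4496 in ZD rats, against 4621, 4114, 3829 and 3643 in PF rats. Again PF1 was the PF rat inside the range of the ZD rats. The log2 difference was 0.20 ± 0.07, a fold of 1.15, with a 95% interval of 0.05 to 0.35, an unadjusted p of 0.0115 and a limma adjusted p of 0.503. The exact two-sided permutation p was 0.0857. Differences of more than 0.37 on the log2 scale, in either direction, lie outside the intervals of both Car2 probe sets.

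In the recovery experiment the first Car2 probe set read 6849, 7509, 9691 and 7168 in ZR rats, against 8794, 7521, 7759 and 8627 in ZRPF rats. The highest and the lowest value both belonged to ZR rats, ZR13 and ZR7. The second read 3392, 3660, 3845 and 3770 in ZR rats, against 3966, 3497, 3619 and 3962 in ZRPF rats, also with overlap. The log2 differences were -0.08 ± 0.11 (95% interval -0.30 to 0.14, limma adjusted p = 0.955) and -0.04 ± 0.07 (95% interval -0.19 to 0.11, adjusted p = 0.969).

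The 1 call among the members was between the 2 experiments, where the return of zinc cannot be told apart from experiment, age and feeding. The second Car2 probe set fell by 0.34 ± 0.07 on the log2 scale in ZR against ZD (95% interval -0.49 to -0.19, limma adjusted p = 0.00325), and the highest ZR rat, at 3845, was below the lowest ZD rat, at 4469. No overlap with ZR lower was seen in 9.94% of all tested probe sets. The first Car2 probe set differed by -0.05 ± 0.11 in the same comparison (95% interval -0.27 to 0.18, limma adjusted p = 0.81). So 1 of the 2 probe sets was called, their intervals overlapped, and the difference between them was not tested. The second probe set in ZRPF against PF was -0.10 ± 0.07 (limma adjusted p = 0.354), and the test of the difference between that and ZR against ZD, which is the same contrast as the change between experiments, gave -0.24 ± 0.10 (limma adjusted p = 0.747). Beside this call, 10 of the 13 tested oligodendrocyte markers were lower in ZR than in ZD, 3 of them called, with summed signals of 90583 to 110426 in ZR and 99018 to 111998 in ZD. With their mean as a covariate the difference was -0.28 (adjusted p = 0.0397), and with the choroid plexus markers it was -0.34 (adjusted p = 0.0042), both by limma. Hbb, a red blood cell globin gene and the 1 tested marker of that type, was called lower in ZR than in ZD as well, with a log2 difference of -0.60, and its part in the Car2 result was not tested. The 10 tested markers of meninges and mural cells were all lower in ZR than in ZD, 4 of them called, and their part was not tested either.

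**Figure D2:**
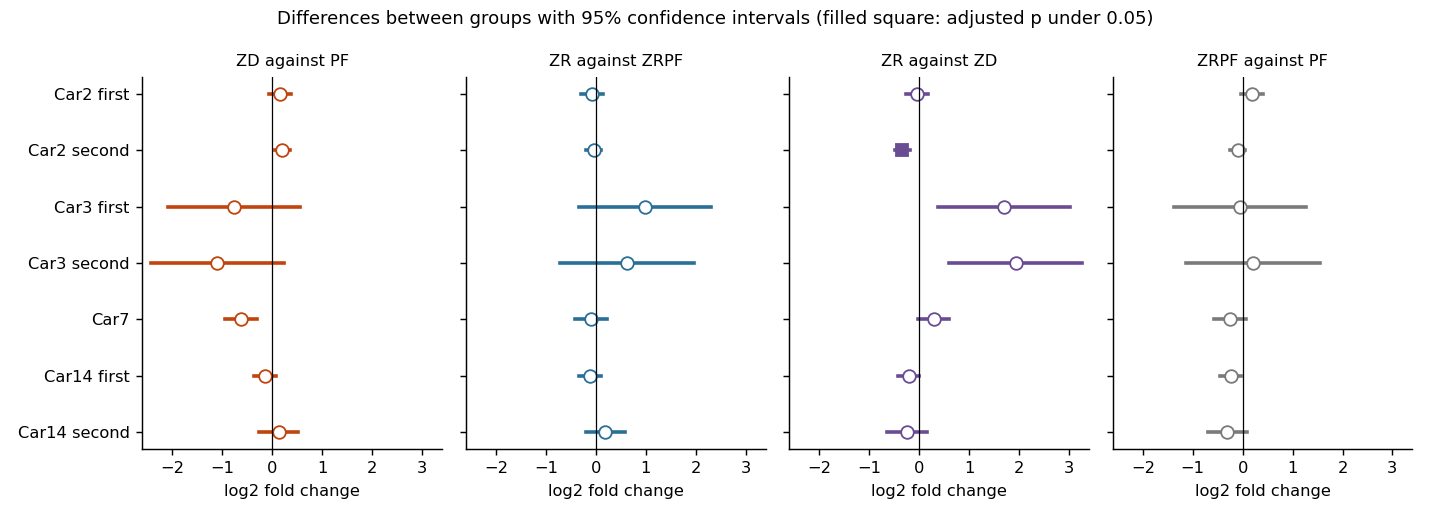
log2 fold change (x axis) with its 95% confidence interval for the 7 member probe sets (rows) in 4 comparisons (panels): ZD against PF, ZR against ZRPF, ZR against ZD and ZRPF against PF. The 1 filled square, an adjusted p under 0.05, is the second Car2 probe set in ZR against ZD, and the intervals of Car3 are the widest of the 7.

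Car3 is a cytosolic isozyme of low catalytic activity, known as abundant in skeletal muscle, adipose tissue and liver. In these diencephalons its signal fell into 2 separate levels, the upper one shared by rats of 3 groups. The first probe set (1367896_at) read 347, 228, 194 and 229 in ZD rats, against 1324, 276, 318 and 250 in PF rats. PF1 stood apart from the other 7 rats. In the recovery experiment it read 302, 413, 2062 and 1483 in ZR rats, against 1369, 303, 270 and 220 in ZRPF rats. ZR13, ZR15 and ZRPF2 stood apart there. So 4 of the 16 rats, 2 ZR, 1 PF and 1 ZRPF, lay between 1324 and 2062 and the other 12 between 194 and 413, and 0 of the 4 ZD rats were in the upper level.

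The second Car3 probe set (1386977_at), dim on most arrays, put the same rats on top. It read 38.6, 57.8, 44.7 and 16.1 in ZD rats, against 234, 59.9, 57.0 and 41.8 in PF rats. It read 67.0, 54.6, 370 and 249 in ZR rats, against 221, 54.3, 69.5 and 71.7 in ZRPF rats. The 4 rats that were high on the first probe set lay between 221 and 370 on the second, and the other 12 lay between 16.1 and 71.7. Within those 12 rats the probe sets did not track each other (Pearson r = -0.08, permutation p = 0.841; Spearman rho = -0.43, p = 0.231; adjusted p of r 0.841 over 4 pairs), and r was -0.15 without the 2 rats farthest from the median.

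**Figure D3:**
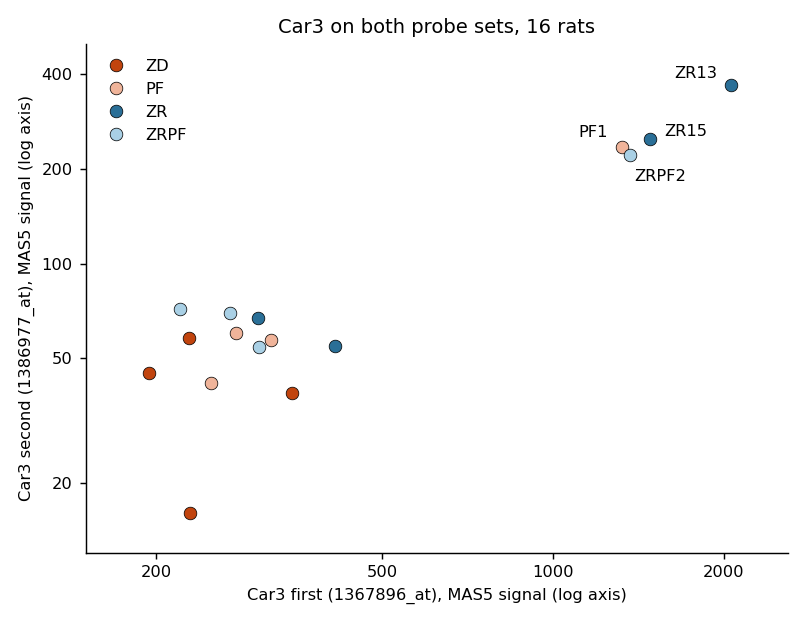
MAS5 signal of the first (x axis) and the second (y axis) Car3 probe set, both on log axes, with 1 point per rat coloured by group. PF1, ZRPF2, ZR13 and ZR15 lie apart at 1324 to 2062 on the first and 221 to 370 on the second probe set, and the other 12 rats, among them the 4 ZD rats, lie at 194 to 413 and 16.1 to 71.7.

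The spread of Car3 left its differences wide. In ZD against PF they were -0.76 ± 0.63 (95% interval -2.08 to 0.56, limma adjusted p = 0.802) and, for the second probe set in a fit with no filter, -1.10 ± 0.64 (95% interval -2.43 to 0.24, limma adjusted p = 0.821). Without PF1 they were -0.20 and -0.55, and without ZD9 the second was -0.71. In ZR against ZRPF they were 0.99 ± 0.63 (95% interval -0.33 to 2.31, adjusted p = 0.932) and 0.62 ± 0.64 (95% interval -0.71 to 1.96, adjusted p = 0.95), both by limma. With 1 rat left out they ranged from 0.52 (without ZR13) to 1.58 (without ZRPF2) and from 0.14 to 1.07, with the same rats at the ends. In ZR against ZD they were 1.69 ± 0.63 (limma adjusted p = 0.0716) and 1.93 ± 0.64 (limma adjusted p = 0.0706), and the exact permutation p was 0.0571 for each. The first passed the threshold in a limma fit of the ZR and ZD arrays alone (adjusted p = 0.0453) and without ZR7 (2.15, adjusted p = 0.0319), and the second without ZR10 (2.37, adjusted p = 0.0378). In ZRPF against PF they were -0.06 ± 0.63 and 0.21 ± 0.64 (limma adjusted p = 0.962 and 0.901). The within-group SD of the first probe set, 1.09 on the log2 scale, was reached or passed by 16 of the 15521 tested probe sets, itself among them, and the median SD was 0.15.

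Markers of skeletal muscle and adipose tissue, which are rich in Car3, were set beside it, and no liver markers were listed. Of 11 skeletal muscle markers listed, 10 had a probe set and 2 were tested. The signal summed over all 10 was 9538 to 12066 in ZD and 9930 to 12477 in PF. It was 8477 to 11950 in ZR and 8458 to 13611 in ZRPF. Most of the sum came from the probe set assigned to Myh1, a muscle myosin gene. In the 4 rats with high Car3 that sum was 11682 (PF1), 8477 (ZR13), 9575 (ZR15) and 10284 (ZRPF2), all within the 8458 to 13611 of the other 12 rats. The Myh1 probe set alone read 7870 to 12991 over the 16 rats, so the sum cannot show a small amount of muscle. The muscle creatine kinase gene Ckm read 9.56 to 62.1 over the 16 rats. Of 10 adipocyte markers listed, 9 had a probe set and 2 were tested. The signal summed over all 9 was 844 to 903 in ZD and 780 to 907 in PF. It was 782 to 1012 in ZR and 825 to 1025 in ZRPF. The adipocyte gene Adipoq read 10.9 to 61.4 over the 16 rats. Scd and Lpl, the 2 tested ones, made up most of the sum, so it cannot show a small amount of adipose tissue. In the 4 rats with high Car3 that sum was 837 (PF1), 821 (ZR13), 981 (ZR15) and 885 (ZRPF2), and the other 12 rats lay between 780 and 1025. The choroid plexus sum in the same rats was 9715 (PF1), 8229 (ZR13), 24712 (ZR15) and 8578 (ZRPF2), within the 8205 to 37279 of the others.

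The highest rat of a group was the same for Car3 and Car2. In each of the 4 groups the rat with the highest signal on the first Car3 probe set (ZD2, PF1, ZR13 and ZRPF2) was also the highest on both Car2 probe sets, and on the second Car3 probe set in 3 of 4 groups. Some of these top ranks were narrow, such as ZRPF2 at 3966 against ZRPF6 at 3962 on the second Car2 probe set. On the first, ZD2 read 8425 against 8357 in ZD3. Others were wide, such as PF1 at 8954 against 6902 in PF4 on the first. ZR15, in the upper Car3 level, read 7168 there, below ZR10 at 7509. Of all tested probe sets 0.303% had the same 4 rats on top. This comparison was not planned in advance, and the 2 Car2 probe sets moved together. Car3 and Car2 are next to each other in the GRCr8 gene order. Of the other genes within 20 places of Car3 that had a tested probe set, Rbis, E2f5 and 1 of the 2 Ralyl probe sets shared the highest rat in 0 of 4 groups, and Zfp457 and the other Ralyl probe set in 1 of 4. No correlation is given over all 16 rats, since Car3 falls into separate levels. Within the 12 rats of the lower level, a split made on Car3 itself, the first Car3 and the first Car2 probe sets had a Pearson r of 0.33 (permutation p = 0.4, adjusted p = 0.8) and a Spearman rho of 0.26 (p = 0.531), and r was -0.02 without the 2 rats farthest from the median.

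Car14 is a membrane-bound isozyme with its active site outside the cell, known from neurons of the mouse brain. Its first probe set (1373790_at) read 595, 620, 730 and 705 in ZD rats, against 774, 627, 771 and 750 in PF rats. PF2 lay among the ZD rats and the other PF rats above them. The log2 difference was -0.14 ± 0.10 (95% interval -0.36 to 0.07, limma adjusted p = 0.774, exact permutation p = 0.171). In the recovery experiment it read 500, 629, 573 and 582 in ZR rats, against 559, 566, 655 and 693 in ZRPF rats. These overlapped, with ZR7 the lowest, and the log2 difference was -0.11 ± 0.10 (95% interval -0.33 to 0.10, limma adjusted p = 0.945).

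The second Car14 probe set (1374039_at) read 332, 339, 250 and 458 in ZD rats, against 309, 301, 387 and 251 in PF rats. It read 285, 310, 285 and 260 in ZR rats, against 199, 321, 197 and 306 in ZRPF rats. The groups overlapped in both experiments, and the log2 differences were 0.13 ± 0.19 (limma adjusted p = 0.902) and 0.19 ± 0.19 (limma adjusted p = 0.946), opposite in sign to those of the first probe set. From rat to rat the 2 Car14 probe sets were hardly related (Pearson r = 0.08, permutation p = 0.804, adjusted p = 0.841; Spearman rho = 0.11, p = 0.722; 16 rats; r = 0.08 without the 2 farthest rats). Between the experiments the first probe set was -0.24 ± 0.10 in ZRPF against PF (95% interval -0.46 to -0.03, unadjusted p = 0.0299, limma adjusted p = 0.12; -0.33 and 0.0382 after median centring) and -0.21 ± 0.10 in ZR against ZD (limma adjusted p = 0.162).

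Genes whose signal, less its group mean, followed the brightest probe set of a member most closely over the 16 rats were looked up among 11777 probe sets, as a description with no test, since the highest of so many values is large by choice. For Car2 they were Ddr1 (r = 0.86), a collagen receptor kinase, Qng1 (0.81) and Ccz1 (0.81). For Car7 they were Rsbn1 (0.86), Denr (0.86), a translation reinitiation factor, and Zbtb7a (0.83), a transcriptional repressor. For Car14 they were Rassf4 (0.87), Kpnb1 (0.86), a nuclear import receptor, and Cyp2u1 (0.82), a cytochrome P450. None is given for Car3, whose rats fall into separate levels.

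The rest of the family was listed with 12 genes, of which 10 had a probe set and 4 were tested. Car4 is the isozyme anchored to the outer cell surface, and Car8, Car10 and Car11 are relatives known to lack catalytic activity. None of the 4 was called in ZD against PF, where the log2 differences were -0.02 ± 0.15 for Car4, -0.05 ± 0.14 for Car8, -0.03 ± 0.09 for Car10 and 0.04 ± 0.08 for Car11 (SE). None was called in ZR against ZRPF either, with values of -0.08 ± 0.15, 0.03 ± 0.14, -0.01 ± 0.09 and -0.09 ± 0.08 in the same order. Car10 was called between the experiments: its signal was 908 to 1161 in ZRPF against 660 to 802 in PF, a rise of 0.38 ± 0.09 (limma adjusted p = 0.00535), and 908 to 1003 in ZR against 713 to 775 in ZD, a rise of 0.40 ± 0.09 (limma adjusted p = 0.00373). Both pairs of Car10 ranges were apart, which with the recovery experiment higher was seen in 12% of all tested probe sets for ZRPF against PF and in 9.59% for ZR against ZD. For Car11 1 of 3 tested probe sets was called in ZRPF against PF, at 0.26 ± 0.08 (limma adjusted p = 0.0397). These calls stand beside the 15.7% of all tested probe sets called in ZRPF against PF and the 17.3% called in ZR against ZD. Car1, Car5a, Car5b, Car6, Car9 and Car12 lay below the filter, and Car1, the main red blood cell isozyme, read between 0.977 and 26.0.

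**Figure D4:**
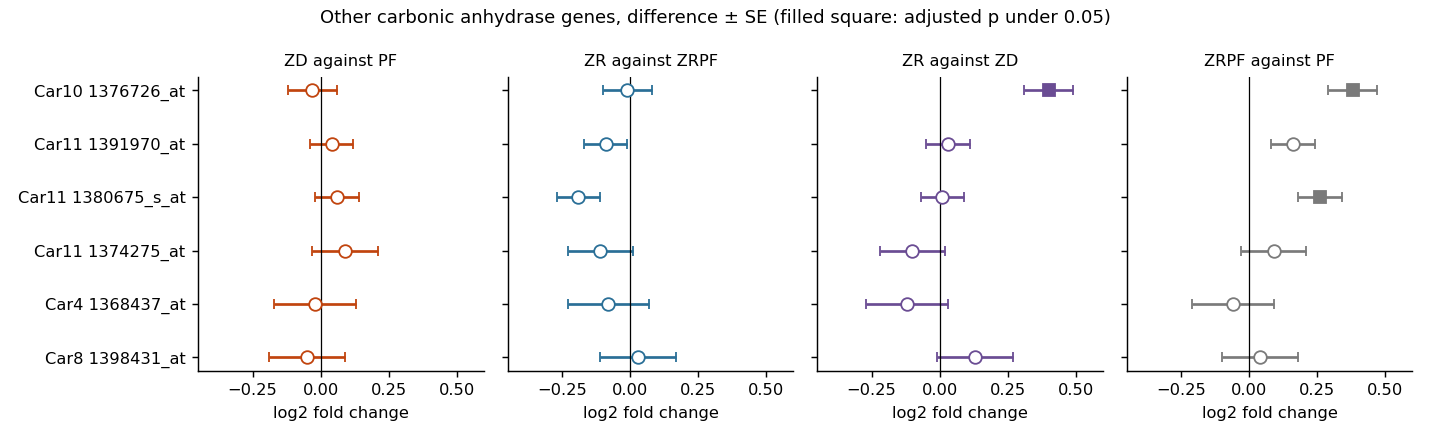
log2 fold change ± SE (x axis) of the tested probe sets of Car10, Car11, Car4 and Car8 (rows) in ZD against PF, ZR against ZRPF, ZR against ZD and ZRPF against PF (panels). Filled squares mark an adjusted p under 0.05, which are Car10 in both comparisons between experiments and 1 Car11 probe set in ZRPF against PF.

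Transporters that move bicarbonate, protons or lactate work beside carbonic anhydrases. Of 28 listed, 22 had a probe set and 15 were tested: in ZD against PF 7 were higher and 8 lower, 0 were called, and the median log2 difference was -0.027, where it was 0.017 over 9278 named genes. The smallest p-values there belonged to Atp6v0a1, a proton pump subunit, at 0.14 ± 0.08, Slc16a1, a lactate carrier, at 0.10 ± 0.06, and Slc4a4, a sodium bicarbonate cotransporter, at -0.14 ± 0.09, with limma adjusted p-values of 0.693, 0.721 and 0.736. In ZR against ZRPF 9 were higher and 6 lower, and 0 were called, with a median of 0.016. Between the experiments 4 rose and 1 fell in ZRPF against PF, where 9.5% of all tested probe sets were called higher and 6.15% lower. Higher calls were 60.7% of all calls there, and 31.2% after centring each array on its median, so the balance of directions between the experiments depends on the scaling. Among the called transporters were Atp6v0a1 (0.49 ± 0.08, limma adjusted p = 0.000465), Slc12a5, the neuronal potassium chloride cotransporter (0.33 ± 0.07, limma adjusted p = 0.00231), and Slc4a3, an anion exchanger (0.38 ± 0.08, limma adjusted p = 0.00412). In ZR against ZD 4 rose and 0 fell, beside 9.16% of all tested probe sets called higher and 8.18% lower. The receptor Ptprz1, which carries a carbonic anhydrase domain without activity, was -0.18 ± 0.15 in ZD against PF and 0.13 ± 0.15 in ZR against ZRPF, neither called.

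Other zinc enzymes were listed with 46 genes, of which 45 had a probe set and 33 were tested. In ZD against PF 18 were higher and 15 lower, 0 were called, and the median was 0.02. The smallest p was that of Aspa, the oligodendrocyte enzyme that cleaves N-acetylaspartate, at -0.38 ± 0.12 (limma adjusted p = 0.461), before Galt at 0.25 ± 0.10 and Ide, the insulin-degrading protease, at -0.18 ± 0.08 (limma adjusted p = 0.556 and 0.628). In ZR against ZRPF 8 were higher and 25 lower, 0 were called, and the median was -0.07, where it was -0.008 over all named genes. Sord, sorbitol dehydrogenase, at -0.21 ± 0.08, Dnpep at -0.12 ± 0.06 and Aspa at -0.22 ± 0.12 led there, each with a limma adjusted p of 0.927. Between the experiments 4 rose and 2 fell in ZRPF against PF, with the aminopeptidase gene Npepps at 0.71 ± 0.07 (limma adjusted p = 1.27e-06), the carboxypeptidase gene Cpd at -0.51 ± 0.10 (limma adjusted p = 0.00133) and the glyoxalase gene Hagh at -0.29 ± 0.07 (limma adjusted p = 0.00556). In ZR against ZD 1 rose and 7 fell. Of all tested probe sets, 15.7% were called in ZRPF against PF and 17.3% in ZR against ZD (9.16% higher, 8.18% lower).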

How the data were processed

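The authors deposited 1 signal intensity per probe set and array, made with MAS5 per the labels; its version is not given in the sources used here. No step before that signal is recorded in the deposited table. Symbols came from the platform annotation: of 31042 probe sets that are no controls (of 31099), 20826 name 1 gene, 436 several and 9780 none. Signals were taken to log2 with no further scaling, and limma 3.58.1 (R 4.3.3; lmFit, eBayes with an intensity trend) was fitted to all 16 arrays and the 15521 probe sets whose mean log2 signal reached the median of 7.35. Benjamini-Hochberg adjustment ran over all of these, with a threshold of 0.05; the second Car3 probe set was read from the same fit with no filter. Exact permutation tests were run in R. Correlations used numpy 2.4.6 and scipy 1.17.1 (100000 permutations within groups), and plots matplotlib 3.10.9. The fits were tested on simulated data.

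Named were all member probe sets, all other carbonic anhydrases, up to 3 genes of each further list per comparison by smallest p, and for Car2, Car7 and Car14 the 3 genes most alike in pattern. The rule held for Car3 too, but its genes were left out after its values were seen to form separate levels. Members and lists were chosen with earlier results of these data known. Alternatives were quantile normalization, median centring, other filters, an offset of 32, no trend, array weights, marker covariates, only the arrays compared, a replicate block, and each rat left out. No column was left unused. Probe sets of different genes were not set against each other in level.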

Additional observations from a re-analysis of the deposited data

Results flagged for a closer look

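Among the 28 combinations of member probe set and group, 2 held a rat far from the other 3 of its group by Dixon's test, which sets the gap to the nearest rat over the range of the group; chance gives about 1 in 20 groups. Car3 on its first probe set was highest in PF1 among the PF rats, at 1324 (log2 10.37, ratio 0.856), beside 250 to 318 in the other PF rats. PF1 was the highest PF rat on both Car2 probe sets as well. Car14 on its first probe set was lowest in PF2 among the PF rats, at 627 (log2 9.29, ratio 0.849), beside 750 to 774 in the other PF rats.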

How the results depend on the processing

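Of 837 repeats of the member differences under other settings, 807 kept their direction and their side of the threshold, 4 passed it newly, 0 lost it and 26 turned in sign. The Car2 fall in ZR against ZD (second probe set) passed in 18 of 18 alternatives run for it, from -0.37 to -0.28 (adjusted p 0.00281 to 0.0397). The Car7 difference in ZD against PF lay between -0.70 and -0.50 and passed in 0 of 17 alternatives (adjusted p 0.155 to 0.528); Car7 and the second Car14 probe set were left out by the filter for the brightest probe sets. The number of member probe sets called in ZRPF against PF was 1 with median centring instead of 0 (first Car14 probe set, -0.33, adjusted p = 0.0382). In ZR against ZD it was 2 instead of 1 with only the arrays compared, and 1 to 2 with a rat left out, where the first Car3 probe set was 1.69 (adjusted p = 0.0453) on the arrays compared and 2.15 (adjusted p = 0.0319) without ZR7. The second Car3 probe set was 2.37 (adjusted p = 0.0378) without ZR10, a repeat chosen after seeing the data, as were all its others. The first Car3 probe set in ZRPF against PF turned in sign, to 0.44 and 0.46 with choroid plexus and oligodendrocyte covariates, and the first Car2 probe set in ZR against ZD turned to 0.03 with the oligodendrocyte covariate. Leaving out 1 rat turned differences within these ranges: Car14 -0.02 to 0.27 (second, ZD against PF); change between experiments -0.02 to 0.10 (Car14 first) and -0.08 to 0.21 (Car14 second); mean of both experiments -0.02 to 0.09 (Car2 first), -0.12 to 0.41 (Car3 first) and -0.48 to 0.03 (Car3 second); ZRPF against PF -0.66 to 0.50 (Car3 first) and -0.23 to 0.75 (Car3 second); ZR against ZD -0.15 to 0.01 (Car2 first). The causes were not tested. Over all probe sets, calls in ZRPF against PF were 2430, and 1423 with the choroid plexus covariate; calls in ZR against ZD were 2692, and 1687 with the oligodendrocyte covariate. With a rat left out, ZD against PF gave 0 to 3 calls, ZR against ZRPF 0 to 9, the change between experiments 0 to 1 and the mean of both 0 to 5.

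The rat numbers 2, 4 and 6 occur in both PF and ZRPF, where they label different rats. Deviations of same-numbered rats correlated by 0.079, 0.02 and 0.035, and those of differently numbered rats by -0.096 to 0.052. These low values show no pairing by number, but they cannot exclude one. The replicate block compared rats 2, 4 and 6 of PF and ZRPF, without PF1 and ZRPF5. With it the first Car3 probe set was 0.69 (limma adjusted p = 0.344) in ZRPF against PF. There 1104 probe sets were called instead of 2430, none of a member. The part of the smaller number of rats in these values was not tested. ZD and PF share 1 number and ZR and ZRPF none, so no block was possible there.

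With 4 rats per group the exact permutation p cannot go below 0.0286, and the second Car3 probe set passed the signal level of the filter in 4 of 16 rats.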

Other observations

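The 16 tested probe sets with a within-group SD at or above that of the first Car3 probe set also include Ttr (2.23 on the log2 scale), the transthyretin gene and a choroid plexus marker, Cga (1.76), the pituitary hormone alpha subunit gene, and Fam111a (1.85). These names were chosen after their values were seen. Ttr ranged from 208.7 to 21240 in signal over the 16 rats.

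A second Car4 probe set, below the filter, read 4.23 to 27.2 in ZD against 22.8 to 30.1 in PF, and 7.69 to 31.8 in ZR against 28.2 to 35.5 in ZRPF. This contrast was chosen after its values were seen. A second Ptprz1 probe set was 0.56 ± 0.17 in ZR against ZRPF on the log2 scale (unadjusted p = 0.00497, limma adjusted p = 0.927), where the brighter one was 0.13 ± 0.15.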
